A study of Mus musculus with 8 samples.

Results

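ATP-binding cassette (ABC) transporters are membrane proteins that spend ATP to move lipids, bile salts, conjugated bilirubin, drugs, peptides and metal complexes across membranes. The genes described here were chosen by name: every probe set annotated to exactly 1 gene, with a symbol made of Abc, a letter from a to g and a number, and the brightest probe set where a gene had several. The rule found 48 of the 19937 genes on the array, with 16 in subfamily A, 9 in B, 10 in C, 3 in D, 1 in E, 3 in F and 6 in G. It used no difference between samples. The rule, and the gene lists and roles used below, were chosen with earlier results of these data known. In the hepatocyte, ABC exporters of the canalicular membrane drive bile formation: they secrete bile salts, phospholipid, sterols and conjugated bilirubin into bile, while others on the sinusoidal side return conjugates to blood. Bilirubin is itself the end product of heme breakdown by the heme oxygenases HO1 and HO2, after biliverdin reductase, and leaves the hepatocyte mainly as a conjugate through an ABC exporter. In subfamily D, Abcd2 and Abcd3 carry fatty acids and bile acid precursors into peroxisomes, and several B members sit in mitochondria. The E and F proteins keep the ATPase domains but no membrane part and act on ribosomes.

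Primary hepatocytes from livers of male BALB/c mice were profiled in 4 groups of 2 whole-transcript gene arrays (8 in all), which cross the HO1 genotype with a lentiviral short hairpin RNA (shRNA). Arrays labelled HO1 knockout held HO1-/- cells with scrambled shRNA, HO2 knockdown arrays held HO1+/+ cells with shRNA against HO2, combined arrays held HO1-/- cells with the HO2 shRNA, and control arrays held HO1+/+ cells with scrambled shRNA. Per the labels' treatment protocol, every group carries the virus, the selection drug and the glucocorticoid: puromycin came 24 h after transduction, selection lasted 3 days, and RNA was taken 28 h after a 30 min dexamethasone pulse (1 µM). Puromycin and dexamethasone are themselves substrates of the drug exporters encoded by Abcb1a and Abcb1b. The series' design text calls the arrays without HO2 shRNA untreated, and 1 label field writes siRNA for shRNA; the protocol's version, with a scrambled hairpin, is used here. The HO2 knockdown rests on a single hairpin, and no age of the mice is given in the labels. The 2 arrays of a group are labelled biological replicates; which animals or cultures they stand for is not given, and the p-values cover array-to-array spread, which may be technical. A difference tied to the HO1-/- genotype and one tied to a separate cell preparation cannot be told apart.

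Hmox2, which encodes HO2, had log2 signals of 8.32 and 8.38 in HO2 knockdown arrays, 9.26 and 9.32 in combined arrays, 11.59 and 11.60 in HO1 knockout arrays and 11.41 and 11.57 in control arrays. It was low wherever the HO2 shRNA was given, and less so in the combined arrays. Hmox1 signals were 11.98 and 11.97 in HO1 knockout arrays, 12.40 and 12.47 in combined arrays, 11.54 and 11.57 in HO2 knockdown arrays and 11.46 and 11.40 in control arrays. The gene named in the knockout was therefore not lower in the HO1-/- arrays; where its probes lie relative to the deleted part is not given in the sources used here, so the probe set does not check the genotype, and every direction given for HO1 below rests on the label. Albumin (Alb), the defining hepatocyte product, lay between 13.32 and 13.99 on every array. Of 20 macrophage and Kupffer cell markers measured, 15 rose and 1 fell in HO1 knockout arrays, and their summed linear signal was 51340 to 52000 in HO1 knockout, 7488 to 7860 in HO2 knockdown, 49530 to 52180 in combined and 8659 to 8953 in control arrays. Among them Clec4f, a Kupffer cell marker, missed the threshold in HO1 knockout arrays, with 7.32 and 7.39 against 7.52 and 7.27 in control arrays. The 12 hepatocyte markers summed to 62460 to 62860 in HO1 knockout, 95660 to 99090 in HO2 knockdown, 104400 to 107300 in combined and 47660 to 48610 in control arrays. In these bulk samples, fewer cells of a type and less RNA per cell cannot be told apart. Replicate arrays correlated at 0.9967 to 0.9986 across genes, and 19 of the 48 ABC genes had a mean signal under the median of all genes (8.16), where an array compresses differences.

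In HO2 knockdown against control, 16 of the 48 ABC transporter genes (33.3%) rose and 3 (6.25%) fell with limma at a Benjamini-Hochberg adjusted p under 0.05, against 16.5% and 16.7% over all genes (33.2% in either direction). The split depended on signal level. With genes under the median signal left out, 57.2% of called genes were higher, against 49.7% before, and 12 of 29 fitted members rose and 3 fell. In HO1 knockout against control, 5 rose (10.4%) and 7 fell (14.6%), with 5.62% and 7.2% over all genes (12.8% in either direction). In combined against control, 12 rose (25%) and 7 fell (14.6%), with 11.6% and 18.3% over all genes (29.9%). These 3 comparisons share the control arrays. Combined against HO1 knockout, which is the HO2 shRNA effect in HO1-/- cells, gave 14 that rose (29.2%) and 5 that fell (10.4%), with 10.2% and 12.8% over all genes (23%). Combined against HO2 knockdown, which is the HO1 genotype effect under HO2 shRNA, gave 4 that rose (8.33%) and 17 that fell (35.4%), with 13% and 21% over all genes (34%). In all, 31 of the 48 genes passed in at least 1 of these 5 comparisons or the interaction and 17 in none. No matching share over all genes is given for this combined count, so it does not set the family apart from other genes.

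Changes of at least 2-fold against control were found in the HO2 knockdown and combined groups. The combined group carries the HO1-/- genotype as well as the HO2 shRNA. At least 2-fold higher signal and a passed test were found for 5 of the 48 genes in HO2 knockdown against control (10.4%, against 1.21% of all genes) and for 9 in combined against control (18.8%, against 2.13%), but for 0 in HO1 knockout against control (1.38% of all genes), where Abcd2 came closest at 1.96-fold. At least 2-fold lower signal was found for 1 gene, Abcc1, in HO2 knockdown (2.08%, against 0.767% of all genes), for 1, again Abcc1, in combined against control (2.08%, against 0.888%) and for 0 in HO1 knockout (0.155% of all genes). The median log2 difference of the 48 genes was 0.07 in HO2 knockdown, −0.08 in HO1 knockout and −0.01 in combined against control, where that of all genes was −0.07, −0.04 and −0.02. Standard errors of the members' log2 differences ran from 0.0448 to 0.16.

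**Figure D1:**
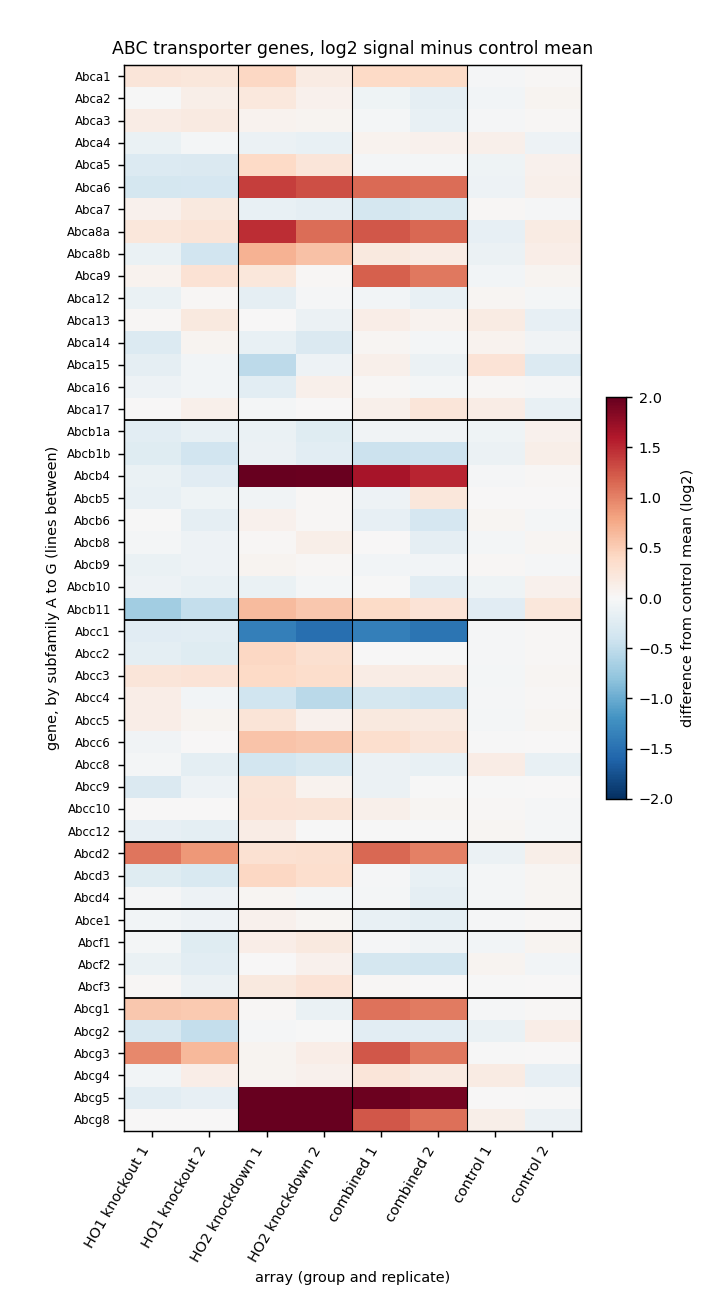
Log2 difference from the control mean for the 48 ABC transporter genes (down the page, by subfamily) in every array (across, in group order), with the colour scale capped at 2 in either direction. Abcg5, Abcg8 and Abcb4 are the strongest positive cells in the HO2 knockdown arrays, and Abcc1 is the strongest negative one there and in the combined arrays.

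The number of calls depended on single arrays in places, over all genes as well as among the members. HO1 knockout against control gave 7 members without HO1 knockout replicate 2, and combined against HO2 knockdown gave 12 without HO2 knockdown replicate 1 and 13 without combined replicate 2. Centring each array on its median moved the split of calls over all genes: in HO2 knockdown against control 62.9% of called genes were then higher, against 49.7% before, with 18 members higher and 2 lower, and in combined against HO2 knockdown 24.1% against 38.2%, with 4 higher and 21 lower. Of the 16 alternative settings, 1 left out genes under the median signal and so fitted 29 of the 48 members. The members that passed under every alternative in which they were fitted were Abca6, Abcc3, Abcd2, Abcg1 and Abcg3 in HO1 knockout against control. In HO2 knockdown against control they were Abca6, Abca8a, Abca8b, Abcb11, Abcb4, Abcc1, Abcc2, Abcc3, Abcc4, Abcc6, Abcd3, Abcg5 and Abcg8. In combined against control they were Abca1, Abca6, Abca7, Abca8a, Abca9, Abcb1b, Abcb4, Abcc1, Abcc4, Abcd2, Abcf2, Abcg1, Abcg3, Abcg5 and Abcg8. Among these, Abca8a, Abca8b, Abca9, Abcb11, Abcd2 and Abcg3 lay under the median signal and had no value in that 1 setting.

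The canalicular sterol exporters Abcg5 and Abcg8 changed most among the members in HO2 knockdown, together with Abcb4. ABCG5 and ABCG8 form an obligate heterodimer that secretes cholesterol and plant sterols into bile, and their genes lie next to each other, on opposite strands and pointing apart, on chromosome 17. Because both rose in HO2 knockdown, the promoter windows are shown here (RefSeq, GRCm38.p6, 250 bases before to 50 after the annotated start, written 5′ to 3′ on each gene's own strand). Whether the shared letters bear on either change was not tested. The Abcg5 window is chr17:84682962-84683261 on the minus strand and the Abcg8 window chr17:84682871-84683170 on the plus strand. Capitals mark the TATA box (TATAAA) and CCAAT box letters found by a search of both strands.
Abcg5: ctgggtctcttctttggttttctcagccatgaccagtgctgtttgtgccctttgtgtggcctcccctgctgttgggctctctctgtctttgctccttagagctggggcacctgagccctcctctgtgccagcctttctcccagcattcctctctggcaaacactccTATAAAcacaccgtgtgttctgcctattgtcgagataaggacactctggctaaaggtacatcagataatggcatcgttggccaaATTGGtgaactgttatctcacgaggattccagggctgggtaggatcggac
Abcg8: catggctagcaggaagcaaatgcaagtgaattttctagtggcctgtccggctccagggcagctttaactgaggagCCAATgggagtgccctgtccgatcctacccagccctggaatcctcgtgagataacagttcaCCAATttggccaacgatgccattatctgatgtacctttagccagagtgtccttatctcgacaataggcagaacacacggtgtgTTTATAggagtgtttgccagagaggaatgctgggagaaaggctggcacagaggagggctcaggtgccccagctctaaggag
The annotated starts are 110 bases apart and the windows share 209 bases. A single TATA box at bases 84683090 to 84683095 matched in both windows, 84 bases before the Abcg5 start and 31 bases before the Abcg8 start, where it reads as TTTATA. They also share a CCAAT box at 84683007 to 84683011, which begins on the Abcg5 start and lies 114 bases before that of Abcg8. RefSeq gives Abcg8 another start, with the window chr17:84676052-84676351, in which none of the searched letters occurred.

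Abcg5 had log2 signals of 10.45 and 10.43 in HO2 knockdown, 10.36 and 10.32 in combined, 8.20 and 8.24 in HO1 knockout and 8.42 and 8.39 in control arrays. Both groups with the HO2 shRNA lay far above both groups without it, with no overlap. The log2 fold change was 2.04 in HO2 knockdown against control (SE 0.0666, adjusted p = 4e-12), 1.94 in combined against control (adjusted p = 1.91e-12) and 2.13 in combined against HO1 knockout (adjusted p = 2.7e-12). Abcg8 had 10.13 and 10.12 in HO2 knockdown, 9.37 and 9.23 in combined, 8.14 and 8.15 in HO1 knockout and 8.25 and 8.02 in control arrays. Here the combined arrays lay between the HO2 knockdown arrays and the arrays without the HO2 shRNA. Its log2 fold change was 1.99 in HO2 knockdown (SE 0.0864, adjusted p = 8.01e-11) and 1.16 in combined against control (adjusted p = 2.92e-08), and combined fell by 0.83 against HO2 knockdown (adjusted p = 3.17e-06). In HO1 knockout against control neither gene passed, at −0.19 for Abcg5 (adjusted p = 0.0814) and 0.01 for Abcg8 (adjusted p = 0.974).

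Abcb4, the floppase that supplies phosphatidylcholine to bile, behaved like Abcg5 in which arrays were high. Its signals were 10.17 and 10.10 in HO2 knockdown, 9.78 and 9.65 in combined, 7.99 and 7.90 in HO1 knockout and 8.10 and 8.16 in control arrays. The log2 fold change was 2.01 in HO2 knockdown (SE 0.0781, adjusted p = 2.31e-11) and 1.58 in combined against control (adjusted p = 1.82e-10), and combined fell by 0.42 against HO2 knockdown (adjusted p = 0.000695). Abcb4 lies in a row with Abcb1a and Abcb1b on chromosome 5, and these neighbours, both encoding the P-glycoprotein drug exporter, did not share the change. Its promoter window, chr5:8893471-8893770 on the plus strand, is given for comparison with the Abcg5 and Abcg8 windows, with the capitals marking a CCAAT box 237 bases before the start, which reads ATTGG on this strand.
Abcb4: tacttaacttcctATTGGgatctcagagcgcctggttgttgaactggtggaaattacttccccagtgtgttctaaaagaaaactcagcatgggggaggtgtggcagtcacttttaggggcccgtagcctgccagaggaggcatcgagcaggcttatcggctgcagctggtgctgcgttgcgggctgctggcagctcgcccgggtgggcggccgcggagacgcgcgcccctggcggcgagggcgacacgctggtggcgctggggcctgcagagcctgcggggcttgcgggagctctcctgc
Abcb1a signals were 9.44 and 9.33 in HO2 knockdown, 9.51 and 9.51 in combined, 9.37 and 9.43 in HO1 knockout and 9.50 and 9.66 in control arrays. It passed in none of the 6 comparisons, although in HO2 knockdown, where the log2 fold change was −0.20 (adjusted p = 0.0532), it passed without control replicate 1 (adjusted p = 0.0158), after another quantile normalization (0.0111) and with genes under the median signal left out (0.036). Without that array it also passed in HO1 knockout (adjusted p = 0.0384). Abcb1b had 10.60 and 10.50 in HO2 knockdown, 10.28 and 10.30 in combined, 10.46 and 10.33 in HO1 knockout and 10.59 and 10.83 in control arrays. It fell by 0.43 in combined against control (SE 0.075, adjusted p = 0.000329) and by 0.32 in HO1 knockout against control (adjusted p = 0.0092). The HO1 knockout call was lost without HO1 knockout replicate 2 (adjusted p = 0.117) or control replicate 2 (0.113) and in a fit with no mean-variance trend (0.0626). In HO2 knockdown Abcb1b, at −0.16 (adjusted p = 0.112), passed without control replicate 1 (adjusted p = 0.00828) and after another quantile normalization (0.0257). Abcb1a and Abcb1b are close paralogs, as are Abca8a and Abca8b, and whether their probes share signal was not tested.

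**Figure D2:**
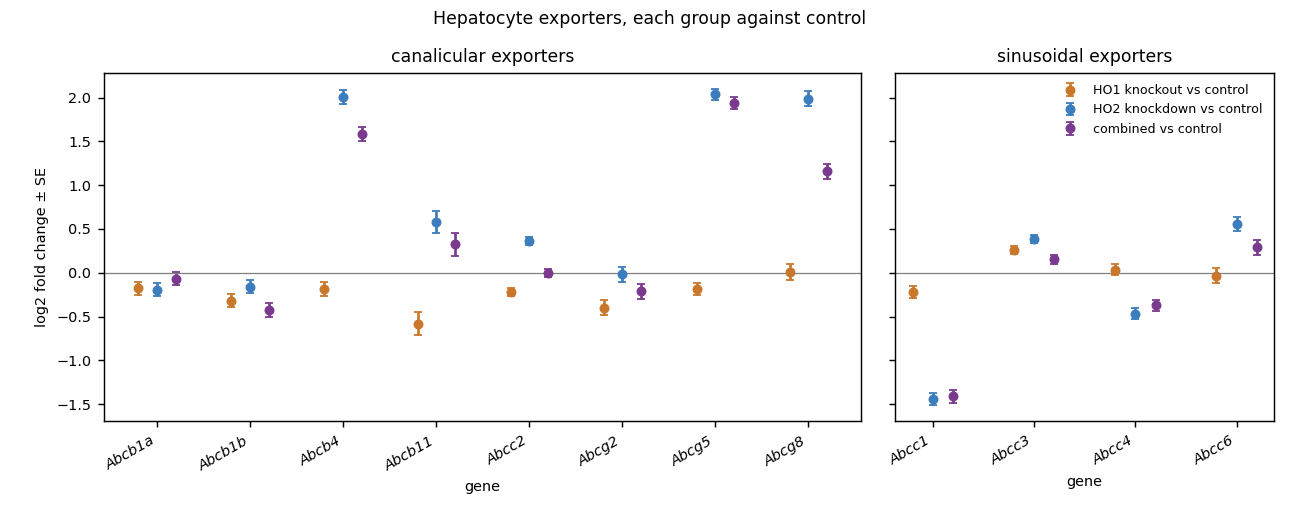
Log2 fold change against control, with its standard error, for the canalicular (left) and sinusoidal (right) exporters in HO1 knockout, HO2 knockdown and combined arrays. Abcb4, Abcg5 and Abcg8 lie between 1.16 and 2.04 in the HO2 knockdown and combined comparisons, and Abcc1 lies at −1.44 and −1.41.

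The bile salt export pump Abcb11, the conjugate exporter Abcc2 and the drug and porphyrin exporter Abcg2 were lower in HO1 knockout. Abcb11, which secretes bile salts into the canaliculus, had 6.85 and 7.07 in HO1 knockout, 8.17 and 8.08 in HO2 knockdown, 7.92 and 7.82 in combined and 7.32 and 7.77 in control arrays. The HO1 knockout arrays were below and the HO2 knockdown arrays above the control arrays, whose 2 values lay apart. Abcb11 fell by 0.58 in HO1 knockout (SE 0.13, adjusted p = 0.00633) and rose by 0.58 in HO2 knockdown (adjusted p = 0.00259) and by 0.91 in combined against HO1 knockout (adjusted p = 6.71e-05). Without HO1 knockout replicate 1 or control replicate 2 its HO1 knockout call was lost (adjusted p = 0.0928 and 0.056). Abcb11 in combined against control, at 0.33 (adjusted p = 0.0739), passed without control replicate 2 (adjusted p = 0.00133).

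Abcc2, the canalicular exporter of bilirubin glucuronides, had 12.03 and 11.99 in HO1 knockout, 12.64 and 12.54 in HO2 knockdown, 12.23 and 12.22 in combined and 12.20 and 12.25 in control arrays. It was lowest in HO1 knockout and highest in HO2 knockdown, and the combined arrays lay within the control range. The log2 fold change was −0.22 in HO1 knockout (SE 0.0448, adjusted p = 0.00304), 0.36 in HO2 knockdown (adjusted p = 1.03e-05) and −0.00 in combined against control (adjusted p = 0.978). Fitted without a mean-variance trend, the HO1 knockout call was lost (adjusted p = 0.0733). Abcg2 had 9.71 and 9.55 in HO1 knockout, 10.00 and 10.02 in HO2 knockdown, 9.82 and 9.82 in combined and 9.89 and 10.17 in control arrays. It fell by 0.40 in HO1 knockout (SE 0.0834, adjusted p = 0.00369), a call lost without HO1 knockout replicate 2 (adjusted p = 0.0662), and stood at −0.02 in HO2 knockdown (adjusted p = 0.875). In combined against control Abcg2 was at −0.21 (adjusted p = 0.0713) and passed without control replicate 1 (adjusted p = 0.00256) and with genes under the median signal left out (0.0438). Over the 8 canalicular exporters (Abcb1a, Abcb1b, Abcb4, Abcb11, Abcc2, Abcg2, Abcg5 and Abcg8), 4 fell in HO1 knockout (7.2% of all genes) with a median log2 difference of −0.20, and 5 rose in HO2 knockdown (16.5% of all genes) with a median of 0.47; the others did not pass. In combined against HO2 knockdown 4 fell (21% of all genes) and the others did not pass.

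On the sinusoidal side Abcc1 and Abcc4 fell with the HO2 shRNA in both genotypes and Abcc6 rose in both, while Abcc3 rose in HO1+/+ cells and was at −0.11 in HO1-/- cells (adjusted p = 0.125). Abcc1, an exporter of glutathione conjugates and leukotriene C4 that most tissues carry, had 9.0 and 8.86 in HO2 knockdown, 9.0 and 8.92 in combined, 10.15 and 10.16 in HO1 knockout and 10.35 and 10.40 in control arrays. The arrays with the HO2 shRNA formed 1 low group and those without it 1 high group. It fell by 1.44 in HO2 knockdown (SE 0.07, adjusted p = 2.91e-10), by 1.41 in combined against control (adjusted p = 1.96e-10) and by 1.19 in combined against HO1 knockout (adjusted p = 3.89e-09). In HO1 knockout Abcc1 was at −0.22 (adjusted p = 0.0517) and passed when HO2 knockdown replicate 1 or 2 was left out (adjusted p = 0.0472 and 0.0465), with arrays centred on their medians (0.0388) and with genes under the median signal left out (0.0343).

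Abcc4, which carries bile salts and cyclic nucleotides out of the cell, had 10.90 and 10.77 in HO2 knockdown, 10.95 and 10.91 in combined, 11.44 and 11.25 in HO1 knockout and 11.28 and 11.33 in control arrays. It fell by 0.47 in HO2 knockdown (SE 0.0636, adjusted p = 2.77e-05) and by 0.37 in combined against control (adjusted p = 0.000246), and was at 0.04 in HO1 knockout (adjusted p = 0.817). Abcc3, the sinusoidal exporter of bilirubin and bile salt conjugates, had 12.02 and 11.97 in HO2 knockdown, 11.77 and 11.76 in combined, 11.85 and 11.89 in HO1 knockout and 11.58 and 11.65 in control arrays. The control arrays were lowest, and no group overlapped them. Abcc3 rose by 0.26 in HO1 knockout (SE 0.0464, adjusted p = 0.0011), by 0.38 in HO2 knockdown (adjusted p = 8.82e-06) and by 0.15 in combined against control (adjusted p = 0.0204). The combined call was lost without combined replicate 1 or 2 (adjusted p = 0.107 and 0.0823) and without control replicate 1 (0.134). Abcc6, whose loss in humans causes the calcifying disorder pseudoxanthoma elasticum, rose by 0.56 in HO2 knockdown (SE 0.0833, adjusted p = 7.68e-05) and by 0.29 in combined against control (adjusted p = 0.0136), and was at −0.03 in HO1 knockout (adjusted p = 0.877). Its combined call was lost under at least 1 alternative setting. In combined against HO1 knockout Abcc6 rose by 0.33 (adjusted p = 0.00853), a call also lost under at least 1 alternative setting.

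Abca6 and Abca8a rose with the HO2 shRNA, and Abca9 rose in the combined arrays. These lie in an unbroken row of 5 protein-coding members on chromosome 11, in the order Abca8b, Abca8a, Abca9, Abca6 and Abca5, all lipid-transporter relatives whose cargo is poorly known. Abca6 had 11.55 and 11.47 in HO2 knockdown, 11.30 and 11.29 in combined, 9.83 and 9.84 in HO1 knockout and 10.07 and 10.28 in control arrays. The HO2 shRNA arrays were high and the HO1 knockout arrays lowest. Its log2 fold change was 1.34 in HO2 knockdown (SE 0.066, adjusted p = 3.46e-10), 1.12 in combined against control (adjusted p = 1.63e-09) and −0.34 in HO1 knockout (adjusted p = 0.00218). A fall of 0.22 in combined against HO2 knockdown (adjusted p = 0.0199) was lost without HO2 knockdown replicate 1 (adjusted p = 0.167), combined replicate 1 (0.0833) or combined replicate 2 (0.103). Abca8a had 8.86 and 8.49 in HO2 knockdown, 8.62 and 8.53 in combined, 7.60 and 7.63 in HO1 knockout and 7.21 and 7.55 in control arrays. It rose by 1.29 in HO2 knockdown (SE 0.125, adjusted p = 7.8e-07) and by 1.19 in combined against control (adjusted p = 1.59e-06). In HO1 knockout Abca8a was at 0.24 (adjusted p = 0.281) and passed without control replicate 2 (adjusted p = 0.0471). The Abca8a promoter window, chr11:110095888-110096187 on the minus strand, holds an E-box 136 bases before the start, shown in capitals. These letters (CACGTG) are bound by the circadian factors CLOCK and BMAL1 among others, and every group was harvested after a synchronizing dexamethasone pulse. They also occurred in windows of Abca1, Abca8b, Abca15, Abcc4 and Abcf1. Whether they bear on the Abca8a change was not tested.
Abca8a: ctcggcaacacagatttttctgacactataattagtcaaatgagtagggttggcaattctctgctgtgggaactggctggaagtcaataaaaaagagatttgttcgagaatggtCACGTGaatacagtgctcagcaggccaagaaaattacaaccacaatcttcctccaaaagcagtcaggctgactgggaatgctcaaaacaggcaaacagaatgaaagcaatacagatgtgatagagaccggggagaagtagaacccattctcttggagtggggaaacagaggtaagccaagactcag

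Abca9, a dim probe set at percentile 24.2 of mean signal over genes, had 7.56 and 7.41 in combined, 6.59 and 6.39 in HO2 knockdown, 6.43 and 6.65 in HO1 knockout and 6.31 and 6.41 in control arrays. Only the combined arrays stood apart. Its log2 fold change was 1.12 in combined against control (SE 0.113, adjusted p = 1.03e-06), 0.13 in HO2 knockdown (adjusted p = 0.392) and 0.18 in HO1 knockout (adjusted p = 0.402). At the ends of the row, Abca8b rose by 0.64 (adjusted p = 0.000275) and Abca5 by 0.32 (adjusted p = 0.00637) in HO2 knockdown, while combined against control gave 0.18 for Abca8b (adjusted p = 0.288) and −0.05 for Abca5 (adjusted p = 0.754). Abca5 fell by 0.29 in HO1 knockout (adjusted p = 0.0267), and both of its calls were lost under at least 1 alternative setting. Of the 5 genes, 4 rose in HO2 knockdown, 3 rose in combined against control and 5 rose in combined against HO1 knockout, where 16.5%, 11.6% and 10.2% of all genes rose. Neighbours therefore differed: Abca9 lies between Abca8a and Abca6, and it was the 1 gene of the row that did not pass in HO2 knockdown.

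**Figure D3:**
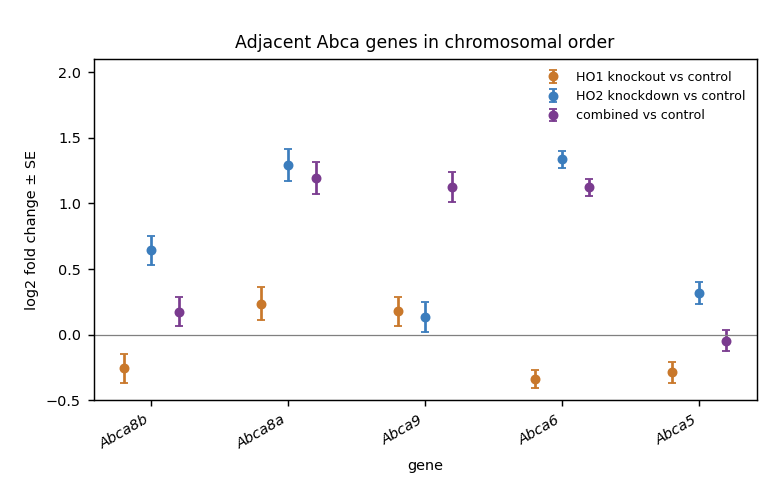
Log2 fold change against control, with its standard error, for the 5 adjacent Abca genes of chromosome 11 in HO1 knockout, HO2 knockdown and combined arrays. Abca8a and Abca6 lie at 1.29 and 1.34 in HO2 knockdown, and Abca9 at 0.13 there and at 1.12 in combined.

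Among the sterol efflux genes, Abca1 rose in each of the other groups against control and Abcg1 rose in arrays labelled HO1-/-. Abca7 fell in combined, and Abcg4 passed in no comparison. Abca1, which loads cholesterol and phospholipid onto apolipoprotein A-I, had 10.35 and 10.33 in HO1 knockout, 10.52 and 10.28 in HO2 knockdown, 10.51 and 10.50 in combined and 10.08 and 10.14 in control arrays. All 6 arrays of the other groups lay above both control arrays. It rose by 0.39 in combined (SE 0.0705, adjusted p = 0.000392), by 0.29 in HO2 knockdown (adjusted p = 0.00495) and by 0.23 in HO1 knockout (adjusted p = 0.0464). The HO2 knockdown call was lost without HO2 knockdown replicate 1 (adjusted p = 0.113). The HO1 knockout call was lost without HO1 knockout replicate 1 (adjusted p = 0.192) or 2 (0.143), control replicate 1 (0.142) or 2 (0.0669), and combined replicate 1 (0.0717) or 2 (0.0714). Abcg1, which passes cholesterol to lipoprotein particles and is prominent in macrophages, had 8.66 and 8.64 in HO1 knockout, 8.14 and 7.98 in HO2 knockdown, 9.21 and 9.16 in combined and 8.09 and 8.15 in control arrays. Its signal was intermediate in HO1 knockout, highest in combined, and the HO2 knockdown and control arrays overlapped. Abcg1 rose by 0.53 in HO1 knockout (SE 0.0839, adjusted p = 0.000317) and by 1.06 in combined against control (adjusted p = 5.72e-08), and was at −0.06 in HO2 knockdown (adjusted p = 0.611). The macrophage marker sums given above were also high in those 4 arrays, and their part in the Abcg1 values was not tested. Abca7, a phospholipid transporter linked to phagocytosis, fell by 0.33 in combined against control (SE 0.0781, adjusted p = 0.00375) and was at 0.14 in HO1 knockout (adjusted p = 0.323).

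Abcg3, a rodent relative of Abcg2, and Abcd2 also followed the HO1 label. Abcg3, at percentile 25.3 of mean signal, had 7.24 and 6.92 in HO1 knockout, 6.33 and 6.41 in HO2 knockdown, 7.51 and 7.33 in combined and 6.27 and 6.28 in control arrays. The 4 arrays labelled HO1-/- were higher than the 4 labelled HO1+/+, without overlap. It rose by 0.80 in HO1 knockout (SE 0.116, adjusted p = 0.000135) and by 1.15 in combined against control (adjusted p = 1.05e-06). A rise of 0.34 in combined against HO1 knockout (adjusted p = 0.0433) was lost without HO1 knockout replicate 2 (adjusted p = 0.408), combined replicate 1 (0.331), combined replicate 2 (0.0667), HO2 knockdown replicate 1 (0.0651) or HO2 knockdown replicate 2 (0.065). Abcd2, a peroxisomal importer of very long chain fatty acids, had 8.11 and 7.91 in HO1 knockout, 7.34 and 7.36 in HO2 knockdown, 8.19 and 8.05 in combined and 6.93 and 7.15 in control arrays. It rose by 0.97 in HO1 knockout (SE 0.107, adjusted p = 7.77e-06) and by 1.08 in combined against control (adjusted p = 8.6e-07). In HO2 knockdown Abcd2 rose by 0.31 (adjusted p = 0.0367), a call lost without HO2 knockdown replicate 1 (adjusted p = 0.126) or 2 (0.144), combined replicate 1 (0.0559) or 2 (0.0555), or control replicate 1 (0.217). As with Abcg1, the macrophage marker sums were also high in the 4 arrays labelled HO1-/-. The sums overlapped between HO1 knockout and combined arrays, and were lower in HO2 knockdown than in control arrays. Their part in the rises of Abcg3 and Abcd2 was not tested.

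**Figure D4:**
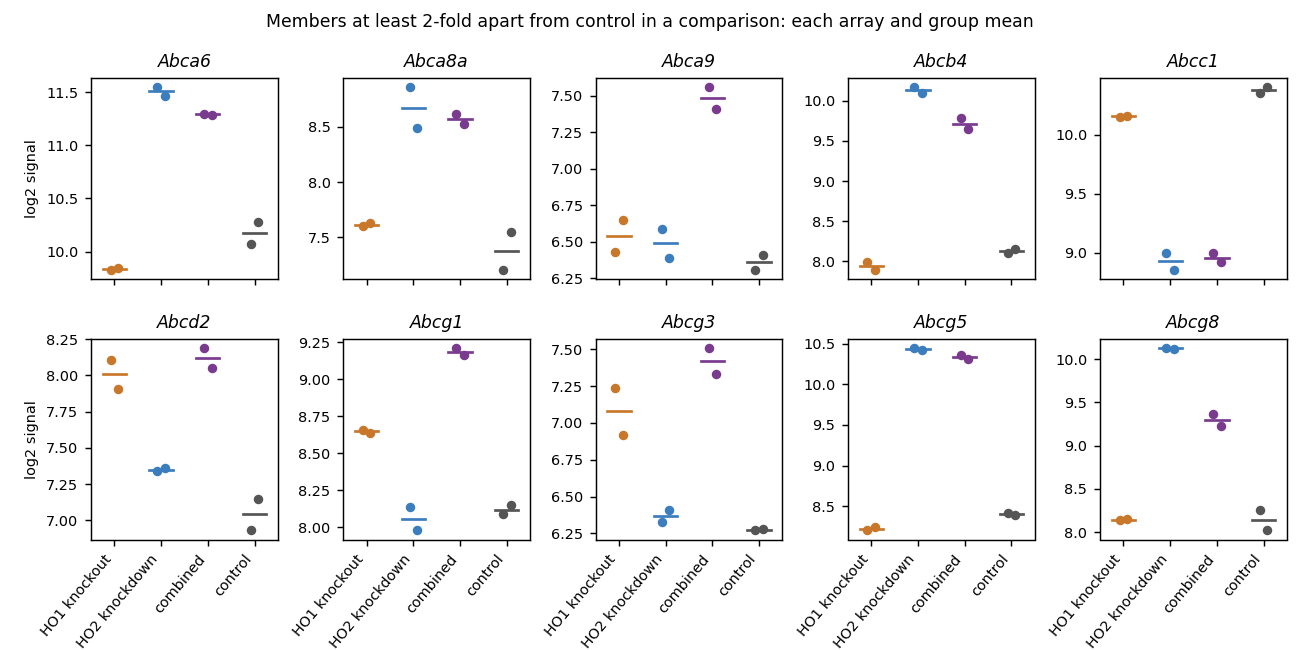
Log2 signal of each array for the 10 members with a passed change of at least 2-fold against control in any group, with arrays as points in the order HO1 knockout, HO2 knockdown, combined and control. Abcb4, Abcg5, Abcg8, Abca6 and Abca8a are high in the HO2 shRNA arrays, Abcc1 is low there, and Abcd2, Abcg1 and Abcg3 are high in the HO1 knockout and combined arrays.

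The other peroxisomal member, Abcd3, which imports branched-chain fatty acids and bile acid precursors, moved differently from Abcd2. Its signals were 10.37 and 10.30 in HO1 knockout, 11.02 and 10.95 in HO2 knockdown, 10.58 and 10.46 in combined and 10.57 and 10.65 in control arrays. HO1 knockout was lowest and HO2 knockdown highest. Abcd3 fell by 0.27 in HO1 knockout (SE 0.0607, adjusted p = 0.00642), rose by 0.38 in HO2 knockdown (adjusted p = 0.000157) and fell by 0.46 in combined against HO2 knockdown (adjusted p = 3.22e-05). The HO1 knockout call was lost without HO1 knockout replicate 2 (adjusted p = 0.072) or control replicate 2 (0.0507). A rise of 0.18 in combined against HO1 knockout (adjusted p = 0.039) was lost without HO1 knockout replicate 1 (adjusted p = 0.0637) or 2 (0.216) and without combined replicate 1 (0.342).

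Of the mitochondrial and heme-linked members, Abcb6 fell in combined and Abcb8 and Abcb10 passed in no comparison. Abcb6, which carries porphyrins, had 9.24 and 9.07 in combined, 9.49 and 9.43 in HO2 knockdown, 9.39 and 9.22 in HO1 knockout and 9.45 and 9.36 in control arrays. The combined arrays lay below the HO2 knockdown and control arrays and overlapped the HO1 knockout arrays. Abcb6 fell by 0.25 in combined against control (SE 0.0812, adjusted p = 0.029) and by 0.30 in combined against HO2 knockdown (adjusted p = 0.00929). Without combined replicate 2 both calls were lost (adjusted p = 0.313 and 0.134). The call against control was also lost without control replicate 1 (adjusted p = 0.112), and that against HO2 knockdown without HO2 knockdown replicate 1 (0.0876). Abcb10, an inner-membrane protein needed for heme synthesis in red cell precursors, had 8.50 and 8.30 in combined, 8.37 and 8.47 in HO2 knockdown, 8.41 and 8.36 in HO1 knockout and 8.43 and 8.59 in control arrays. Its HO2 knockdown and combined arrays overlapped the control arrays, and both HO1 knockout arrays lay just below them. Its log2 differences from control were −0.12 in HO1 knockout, −0.09 in HO2 knockdown and −0.11 in combined (SE 0.0934).

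The ribosome-associated members were lower in combined than in HO2 knockdown arrays, 4 of 4, in a comparison in which 21% of all genes fell. All 4 were bright, at percentiles 73.16 to 96.02 of mean signal. With genes under the median signal left out, only 25% of the called genes were higher in this comparison, and the median log2 difference of the genes left was −0.114. Abce1, which recycles ribosomes after termination, fell by 0.24 (SE 0.0458, adjusted p = 0.00089), Abcf2 by 0.41 (adjusted p = 7.46e-05), Abcf3 by 0.22 (adjusted p = 0.0194) and Abcf1, which acts in translation initiation, by 0.21 (adjusted p = 0.0332). Against control, Abce1 fell by 0.18 (adjusted p = 0.00759) and Abcf2 by 0.36 (adjusted p = 0.000165) in combined, and none of the 4 passed in HO1 knockout. Of these, Abce1 and Abcf2 kept the call against HO2 knockdown under each of the 16 alternative settings, and Abcf1 and Abcf3 did not. Abce1 lost its call against control under at least 1 of them. Among 10 ribosome and translation partners, 1 rose and 6 fell in the same comparison, with a median of −0.24.

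Few of the remaining members moved. Abca2, a lysosomal lipid transporter, fell by 0.28 in combined against HO2 knockdown (adjusted p = 0.00907). Abcc10, a drug exporter, rose by 0.27 (adjusted p = 0.0151) and Abcc8, the sulfonylurea receptor of the pancreatic beta cell, fell by 0.33 (adjusted p = 0.0282) in HO2 knockdown. Each of these 3 calls was lost under at least 1 alternative setting. The members that passed in no comparison were Abca4, Abca12, Abca13, Abca14, Abca15, Abca16, Abca17, Abcb1a, Abcb5, Abcb8, Abcb9, Abcb10, Abcc5, Abcc9, Abcc12, Abcd4 and Abcg4.

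The effect of the HO2 shRNA differed between the genotypes for 5 of the 48 members (10.4%, against 12.2% of all genes), of which 2 had a positive interaction (4.67% of all genes) and 3 a negative one (7.57% of all genes). Centred on array medians, the interaction gave 2 positive and 5 negative members, and 27.1% of all called genes were positive, against 38.2% before. It gave 9 members without control replicate 1, 10 without control replicate 2 and 4 without HO1 knockout replicate 2, while the calls over all genes numbered 1972, 4744 and 1771, against 2442 with every array. Abcg8 rose less with the shRNA in HO1-/- cells, by 1.15, than in HO1+/+ cells, by 1.99 (interaction −0.84, SE 0.122, adjusted p = 0.00037). Abcg5, its heterodimer partner, had 2.13 in HO1-/- cells and 2.04 in HO1+/+ cells (interaction 0.09, adjusted p = 0.564). Abcc3 was at −0.11 in HO1-/- cells and 0.38 in HO1+/+ cells (interaction −0.49, SE 0.0657, adjusted p = 0.000188). Abca9 had 0.95 in HO1-/- cells and 0.13 in HO1+/+ cells (interaction 0.82, SE 0.16, adjusted p = 0.00367). For Abcg1 the shRNA effect was 0.53 in HO1-/- cells and −0.06 in HO1+/+ cells (interaction 0.59, SE 0.119, adjusted p = 0.00425). Abca3, the lamellar body lipid transporter of the lung, had 10.27 and 10.17 in combined, 10.39 and 10.37 in HO2 knockdown, 10.47 and 10.49 in HO1 knockout and 10.29 and 10.34 in control arrays. Its interaction of −0.33 (SE 0.0817, adjusted p = 0.0165) was lost without HO1 knockout replicate 2 (adjusted p = 0.0525), HO2 knockdown replicate 1 (0.0633) or combined replicate 2 (0.0904). The Hmox2 signal was also less reduced in the combined than in the HO2 knockdown arrays, at 9.26 and 9.32 against 8.32 and 8.38, and its part in the interactions was not tested.

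**Figure D5:**
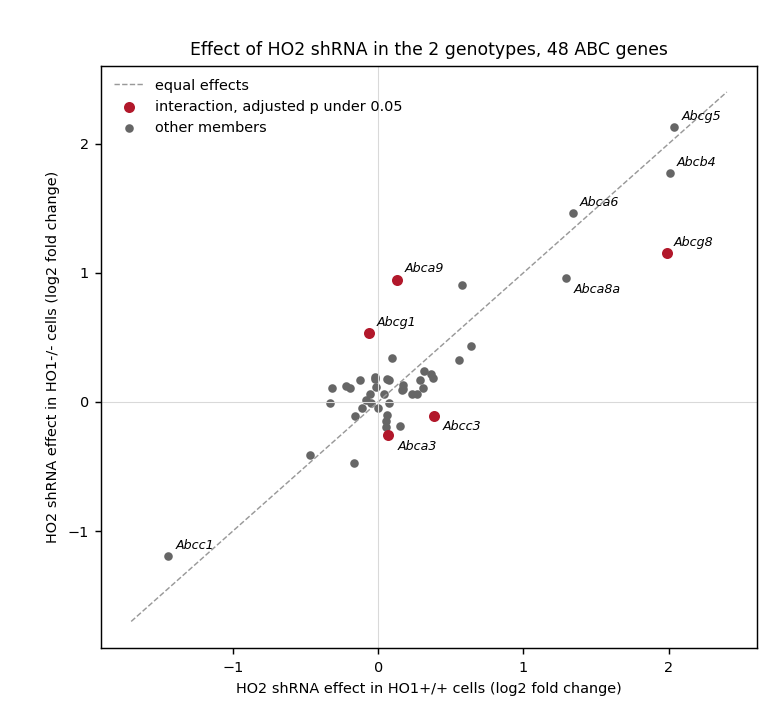
Log2 fold change with the HO2 shRNA in HO1-/- cells (vertical) against that in HO1+/+ cells (horizontal) for the 48 members, with the 5 members that passed the interaction test marked. Abcg8 lies below the line of equal effects at 1.15 and 1.99, and Abca9 above it at 0.95 and 0.13.

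Genes that work beside these transporters were read from lists by function. Over all genes, 16.5% rose and 16.7% fell in HO2 knockdown, and 5.62% rose and 7.2% fell in HO1 knockout. In combined against control 11.6% rose and 18.3% fell, and in combined against HO2 knockdown 13% rose and 21% fell. Among 13 bile salt and organic anion carriers outside the ABC family, 5 rose and 2 fell in HO2 knockdown (median 0.20), led by the bile salt importer Slc10a1 at 2.13 (adjusted p = 9.34e-10), Slco1a4 at 2.05 and Slco1b2 at 1.62. In HO1 knockout 2 fell and the others did not pass (median −0.06), and in combined against control 4 rose and 3 fell (median 0.05). Of 16 nuclear receptors and regulators of ABC genes, 9 rose and 1 fell in HO2 knockdown (median 0.33), among them Nr0b2, a repressor of bile acid synthesis, at 2.20, the xenobiotic receptor Nr1i2 at 1.62 and the hepatocyte factor Hnf4a at 0.75. In HO1 knockout 1 rose, and in combined against HO2 knockdown 6 fell, the others not passing in either, with Nr1i2 at −0.70. All of these counts stand beside the hepatocyte marker list, of which 11 of 12 rose and 1 fell in HO2 knockdown, and the cell cycle list, of which 18 of 18 fell there; their part in the transporter changes was not tested.

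Of 14 sterol and phospholipid efflux partners, 6 rose in HO1 knockout (median 0.19) and 10 in combined against control (0.47), the others not passing, while 7 rose and 1 fell in HO2 knockdown (0.35). Apoa1, the acceptor for Abca1, was at 2.32 in HO2 knockdown and 2.66 in combined, and Apoe, a lipoprotein ligand made by hepatocytes and macrophages, at 0.36 in HO1 knockout and 0.88 in combined. Of 22 genes of peroxisome biogenesis and oxidation, 11 rose in HO2 knockdown and the others did not pass (median 0.23). They included the fatty acid transporter Slc27a2 at 2.43 and the bifunctional enzyme Ehhadh at 1.51. In combined against HO2 knockdown 15 fell and the others did not pass (median −0.31), with Ehhadh at −1.08. In HO1 knockout 1 of them rose and 4 fell (median −0.08). Of 22 mitochondrial iron-sulfur and heme partners, 2 rose and 4 fell in HO1 knockout. Alas1, the first enzyme of heme synthesis, was at −0.27 there, Alad at −0.29 and the mitochondrial iron importer Slc25a37 at −0.32. In HO2 knockdown 8 rose and 7 fell, with Alad at −0.57, Fech, which inserts the iron, at 0.69 and Alas1 at 0.37.

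Promoter windows were held for 38 of the 48 members, 45 windows in all. The E-box letters CACGTG occurred in 6 of the 45 (13.3%), against 7.15% of 32851 windows of all genes, on either strand. The nuclear receptor letters AGGTCA occurred in 7 (15.6%), against 16.3%, TGACNNNGC, the core of the antioxidant response element, in 7 (15.6%), against 12.4%, and the TATA box in 7 (15.6%), against 13.6%. CCAAT occurred in 16 (35.6%), against 37.4%, and the AP-1 letters TGACTCA in 0, against 5.2%. TGACNNNGC can overlap a reverse-strand AGGTCA or an AP-1 match. A match describes letters in a window and is not a site.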

How the data were processed

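Total RNA (300 ng) from 8 samples of primary hepatocytes was hybridised to Affymetrix whole-transcript gene arrays, as the labels' protocols state. Per the submitters' processing notes, the authors used RMA, affy and R 2.15.0, and each deposited value is a log2 probe set signal; which chip definition file and genome build were used was not given in the sources used here. RMA corrects background, applies quantile normalization and summarises probes, so differences at low signal are compressed, and no detection call was at hand. Array medians ran from 7.61 to 7.70.

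Of 34760 probe sets, 21640 carried 1 symbol in the platform annotation, 1321 several and 11799 none; only the first kind was used. The brightest probe set was kept for the 954 genes with several (1 member, Abcb5), which left 19937 genes. All 48 members matched RefSeq (GRCm38.p6) by gene ID.

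Group means were fitted over all 8 arrays with limma 3.58.1 in R 4.3.3 (eBayes with a mean-variance trend, 4 residual and 11.2 prior degrees of freedom). P-values were Benjamini-Hochberg adjusted over all 19937 genes in each of 6 comparisons, and genes under 0.05 were called without a fold threshold. Values in every array were given for members called with a log2 change of at least 1 against control (10), members called in the interaction (5) and 16 listed transporters, 22 in all; partner lists held 202 measured genes of 227, and up to 3 with the smallest p were named. The members, lists and roles were chosen with earlier results of these data known. The fit was tested on simulated data, and 16 alternatives were tried. Promoter windows came from RefSeq, GRCm38.p6.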

Additional observations from a re-analysis of the deposited data

Results flagged for a closer look

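The HO2 shRNA effect differed between HO1-/- and HO1+/+ cells, by limma's interaction test, for 5 of 48 ABC transporter genes (10.4%), against 12.2% of all genes. The interaction, given on the log2 scale as the effect in HO1-/- cells minus that in HO1+/+ cells, was −0.84 for Abcg8, −0.49 for Abcc3 and −0.33 for Abca3. It was 0.82 for Abca9 and 0.59 for Abcg1. Abca3 and Abcc3 had estimates of opposite sign in the HO1-/- and HO1+/+ cells: −0.26 and 0.07 for Abca3, and −0.11 and 0.38 for Abcc3. Within Abca3 the effect in HO1-/- cells passed (adjusted p = 0.00331, or 0.0633 without combined replicate 2) and that in HO1+/+ cells did not (adjusted p = 0.379), and within Abcc3 the effect in HO1-/- cells did not pass (adjusted p = 0.125) and that in HO1+/+ cells did (adjusted p = 8.82e-06).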

How the results depend on the processing

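Across 132 single-gene results and 16 alternatives, 1969 of 2082 values kept their direction and side of the threshold, 78 lost and 35 gained a call, and 0 reversed. Some settings could not reverse a value: a fit with no trend, a replicate block and the stricter threshold keep the fold change. So does leaving out an array of a group outside the comparison. None of these genes had a second probe set, so averaging probe sets left their signals unchanged. The genes under the median signal (Abca8a, Abca9, Abcb11, Abcd2 and Abcg3) had no value in the alternative that left such genes out. When 1 array was left out, the number of ABC genes called ran from 7 to 13 in HO1 knockout, 14 to 20 in HO2 knockdown and 16 to 20 in combined against control. It ran from 13 to 20 in combined against HO1 knockout, 12 to 24 in combined against HO2 knockdown and 4 to 10 for the interaction. The number of calls over all genes also changed when 1 array was left out. With an array left out, a group of 1 array is taken to vary like the others. The labels do not say whether a replicate number marks a shared animal or day. Replicate deviations correlated at −0.261 to 0.122 between groups, which with 1 difference a group does not settle pairing. A replicate block gave 12, 19, 19, 18, 21 and 5 calls in these 6 comparisons, in that order. In combined against HO2 knockdown, leaving out genes under the median signal gave 25% of called genes higher, against 38.2%, with 1 member higher and 17 lower. The number of arrays and the low signal of 19 members limit the precision.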

Other observations

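ABC transporter genes named outside the Abc scheme moved little. Tap1, which with Tap2 pumps peptides into the endoplasmic reticulum for antigen presentation, fell by 0.30 in HO1 knockout against control (adjusted p = 0.0341), and Tap2 fell by 0.25 in HO2 knockdown against control (adjusted p = 0.0208). Cftr, the chloride channel of the family, passed in none of the 6 comparisons. Among 9 peptide loading partners, 1 rose and 3 fell in HO2 knockdown and 1 rose and 2 fell in combined against control. Over all genes, 16.5% rose and 16.7% fell in HO2 knockdown, and 11.6% rose and 18.3% fell in combined against control.

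Markers of other cells that a hepatocyte preparation can hold were also measured. The shares of all genes that rose and fell in each comparison are given with the partner lists above. Of 14 stellate cell and fibroblast markers, 9 fell in HO1 knockout (median −0.34), while 5 rose and 2 fell in HO2 knockdown and 3 rose and 4 fell in combined against control. Of 14 sinusoidal endothelial markers, 5 rose in HO1 knockout (median 0.18) and 10 in combined against control (0.52), while 6 rose and 2 fell in HO2 knockdown. Of 10 neutrophil markers, 3 rose in HO1 knockout, 2 fell in HO2 knockdown, and 3 rose and 1 fell in combined against control. Of 7 cholangiocyte markers, 1 rose in HO1 knockout, 2 rose and 2 fell in HO2 knockdown, and 2 rose and 1 fell in combined against control.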
